A study of Mus musculus with 9 samples.

Results

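Cadherins, catenins, connexins, claudins and a junction scaffold make up the 10 junction genes of liver epithelium described here: Cdh1, Cdh2, Ctnnb1, Ctnna1, Gjb1, Gjb2, Cldn1, Cldn2, Cldn3 and Tjp1. They were chosen by gene symbol and are 10 of the 23444 rows of each table. The rule names no measured value, but the genes were proposed with the TPM differences between these groups already known, so their levels and folds below are a description and not independent evidence. RNA from livers of C57Bl6 mice was sequenced in 3 groups of 3 libraries. Treated livers came from mice of 20 to 22 months that ate chow with PD-0332991, at an amount the labels write as 450 mg/k, during the last 2 weeks. Aged livers came from untreated mice of the same ages on standard chow, and young livers from untreated mice of 2 months on standard chow. PD-0332991 (palbociclib) is an inhibitor of CDK4 and CDK6, kinases that drive entry into the cell cycle, and the study's title concerns Cdk4 in fatty liver of old age. Sex, pooling and whether the libraries of a group are separate mice are not stated in the labels, so p-values rest on a spread between libraries that may be technical.

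Hepatocytes are polarised cells that seal bile canaliculi between neighbours. Adherens junctions hold them together through cadherins, whose tails bind beta-catenin and, through it, alpha-catenin and actin. Tight junctions of claudins on a ZO-1 scaffold close the canaliculus, and gap junctions of connexins pass ions and small molecules between cells. Mouse hepatocytes make both E-cadherin, known for its periportal position, and N-cadherin, and bile duct cells also make E-cadherin. In whole liver, fewer cells of a type and less RNA per cell cannot be told apart.

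Windows upstream of Gjb2 and Cldn1 are shown because these called genes lay on opposite sides of the young livers after treatment. The RefSeq table (GRCm38.p6) holds such windows for 7 of the 10 genes, and not for Cdh1, Cdh2 and Ctnna1. Each is the 250 bases before the annotated start, chr14:57104703-57104952 for Gjb2 and chr16:26371840-26372089 for Cldn1, both from the minus strand. Capitals mark matches on either strand to CAGGTG, an E-box bound by the SNAI and ZEB repressors, or to GGGCGG, the GC box bound by SP1.
Gjb2: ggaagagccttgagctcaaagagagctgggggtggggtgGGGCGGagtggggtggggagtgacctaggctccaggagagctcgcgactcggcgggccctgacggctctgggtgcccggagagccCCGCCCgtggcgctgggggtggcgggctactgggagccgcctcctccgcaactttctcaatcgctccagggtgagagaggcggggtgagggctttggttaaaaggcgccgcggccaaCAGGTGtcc
Cldn1: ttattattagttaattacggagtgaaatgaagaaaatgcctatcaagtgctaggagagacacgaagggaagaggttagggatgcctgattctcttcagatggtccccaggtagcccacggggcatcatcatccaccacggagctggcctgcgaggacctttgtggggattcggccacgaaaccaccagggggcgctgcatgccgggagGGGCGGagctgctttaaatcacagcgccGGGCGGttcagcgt
The Gjb2 window holds CAGGTG once, its first base 9 bases before the start, and 17.2% of all 32851 windows of this length hold that motif. GGGCGG is found at 2 places in each window, and in 32.7% of all windows. CCAAT (33.8% of windows), TGANTCA (6.75%) and ATCAAAG (3.21%), searched on both strands, are not among these letters. Windows of uncalled genes also held these motifs: CAGGTG for Gjb1, GGGCGG for Ctnnb1, Gjb1, Cldn3 and Tjp1, and CCAAT for Ctnnb1 and Gjb1.

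Cdh1, encoding E-cadherin, was lowest in treated and highest in young livers. Gjb2, encoding connexin 26, ran the other way, and Cldn1, encoding claudin-1, was lower in treated than in young livers. Levels are TPM, transcript abundance scaled to length and to the library. A gene was called where limma, fitted on log2(TPM + 0.5) over 10161 genes, gave a Benjamini-Hochberg adjusted p under 0.05. With their lowest value at 1.53 TPM, all 10 genes passed the filter on low values (1 TPM or more in at least 3 libraries).

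In treated against aged livers 2 of 10 genes were called (background 1.45% of all genes tested), 1 higher (background 0.610%) and 1 lower (0.837%). In treated against young livers 3 of 10 were called (background 6.88%), 1 higher (2.59%) and 2 lower (4.29%). In aged against young livers limma called 0 of 10, with 2 at an unadjusted p under 0.05, beside 15.0% of all genes tested at that p (background 1.10% called, 0.650% higher and 0.453% lower). Groups did not overlap for 1 higher and 1 lower gene in treated against aged livers, where 5.72% and 16.7% of all genes tested did so (22.4% together). The same held for 1 higher and 4 lower genes in treated against young livers (background 9.55% and 24.4%, 33.9% together), and for 1 higher and 2 lower genes in aged against young livers (8.82% and 9.57%, 18.4% together). The comparisons share libraries and are not independent. Single libraries weighed on these backgrounds: over all genes, aged against young livers gave 112 calls and 696 without aged library 3, and treated against young livers gave 699 calls and 153 without treated library 2.

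**Figure D1:**
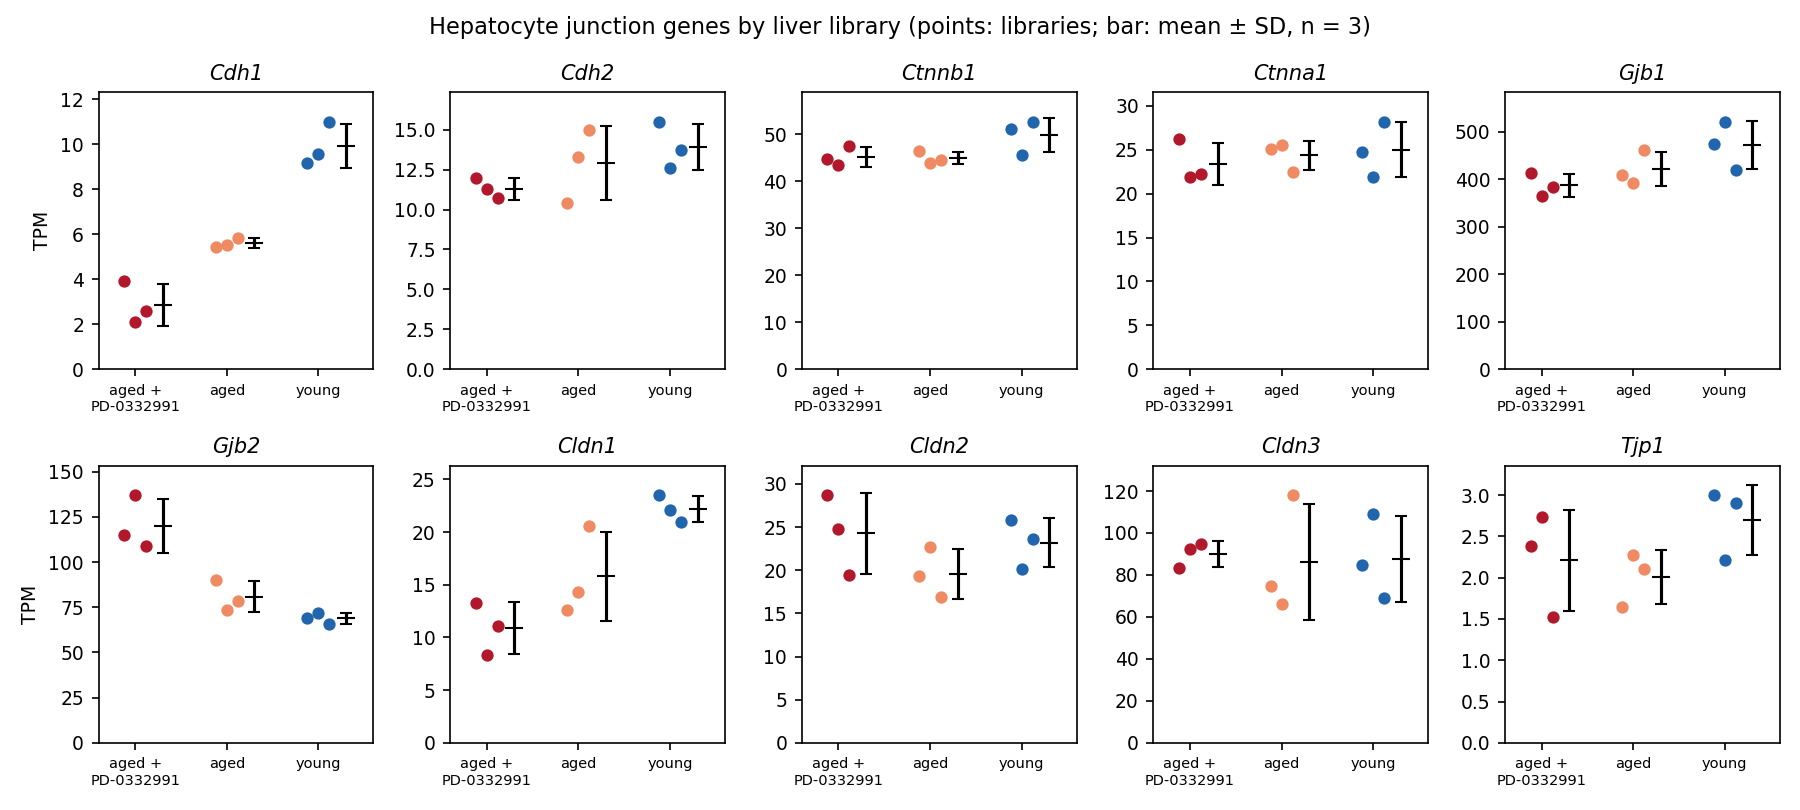
Level in TPM (vertical axes, starting at 0) of the 10 junction genes in treated, aged and young livers; points are libraries and bars the mean ± SD of 3 libraries. Cdh1 lies between 2.12 and 3.9 TPM in treated, 5.45 and 5.85 TPM in aged and 9.15 and 11 TPM in young libraries.

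Among the cadherins, Cdh1 (GRCm38, chromosome 8, 106603351 to 106670246, plus strand) encodes the main adhesion receptor of epithelia. It read 3.9, 2.12 and 2.57 TPM in treated, 5.45, 5.5 and 5.85 TPM in aged and 9.15, 9.57 and 11 TPM in young libraries. All treated libraries lay below all aged ones, and all aged below all young ones. The means were 2.86 ± 0.924 TPM in treated, 5.6 ± 0.219 TPM in aged and 9.92 ± 0.994 TPM in young livers (SD, 3 libraries in each). On the log2 scale Cdh1 fell in treated against aged livers, at -0.89 ± 0.17 (fold change and its SE, here and below; limma adjusted p = 0.0313) and in treated against young livers, at -1.66 ± 0.17 (limma adjusted p = 0.00109). Aged against young livers gave -0.77 ± 0.17, which was not called (limma adjusted p = 0.0652). The call in treated against aged livers was lost in 7 of 14 alternative fits, those without aged library 2 (limma adjusted p = 0.0859), treated library 2 (0.11) or treated library 3 (0.122), with no filter (0.0753), quantile normalization (0.0535), a replicate block (0.0663) or those groups alone (0.105), with folds of -1.11 to -0.73 over all 14. Aged against young livers was called without aged library 3 (limma adjusted p = 0.0298) and in a fit of those groups alone (0.038).

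Cdh2, on chromosome 18, encodes N-cadherin, the other classical cadherin of hepatocytes. It read 12, 11.3 and 10.7 TPM in treated, 10.4, 13.3 and 15 TPM in aged and 15.5, 12.6 and 13.7 TPM in young libraries. Treated libraries overlapped with aged ones and lay below all young ones. No comparison was called, with log2 fold changes of -0.17 (95% interval -0.47 to 0.13) in treated against aged, -0.28 (-0.58 to 0.02) in treated against young and -0.11 (-0.41 to 0.19) in aged against young livers. Within each library the ratio of Cdh2 to Cdh1 was 3.08, 5.33 and 4.15 in treated, 1.91, 2.42 and 2.56 in aged and 1.69, 1.32 and 1.24 in young libraries. N-cadherin mRNA was the higher of the pair in all 9 libraries. The ratios of the 3 groups did not overlap, which repeats the separation of Cdh1 alone.

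**Figure D2:**
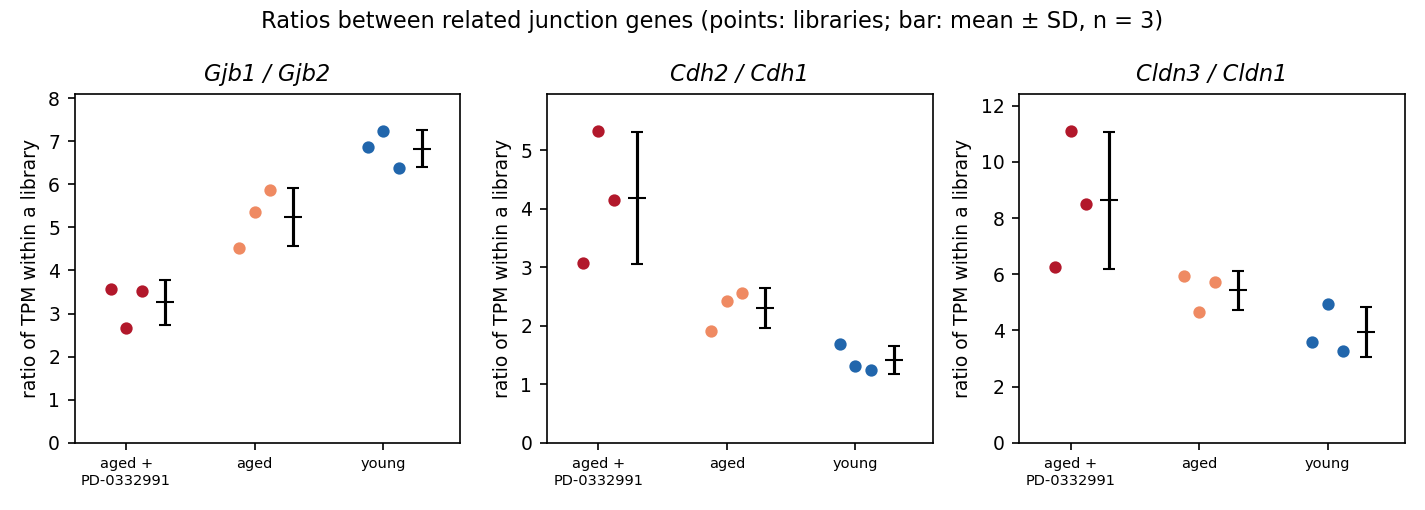
Ratios of TPM within a library (vertical axes, starting at 0) for the gene pairs in the panel titles, in treated, aged and young livers; points are libraries and bars the mean ± SD of 3 libraries. The Gjb1 to Gjb2 ratio averages 3.26 in treated, 5.25 in aged and 6.83 in young livers.

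The catenins, which tie cadherins to actin, overlapped between all groups. Ctnnb1 (chromosome 9, 120929216 to 120960507, plus strand) encodes beta-catenin, also the coactivator of Wnt signalling. It read 44.7, 43.4 and 47.5 TPM in treated, 46.4, 44 and 44.6 TPM in aged and 51.1, 45.7 and 52.7 TPM in young libraries. Treated against aged livers differed by 0.01 on the log2 scale (95% interval -0.19 to 0.21), treated against young livers by -0.14 (-0.34 to 0.06). Ctnna1, on chromosome 18, encodes alpha-catenin and read 26.2, 21.9 and 22.2 TPM in treated, 25.1, 25.5 and 22.5 TPM in aged and 24.8, 21.9 and 28.2 TPM in young libraries. For it these differences were -0.06 (-0.31 to 0.20) and -0.09 (-0.34 to 0.17), and 0.05 and 0.04 with median-of-ratios scaling. Exons of both overlap a gene on the other strand (Ulk4 for Ctnnb1, Lrrtm2 for Ctnna1), and with strand not stated the reads of such pairs cannot be told apart. Beta-catenin mRNA per cadherin mRNA, the ratio of Ctnnb1 to the sum of Cdh1 and Cdh2, was 2.81, 3.23 and 3.59 in treated, 2.92, 2.33 and 2.14 in aged and 2.08, 2.06 and 2.13 in young libraries. All treated ratios exceeded all young ones, and treated overlapped with aged. Aged and young ratios nearly met, at 2.14 for the lowest aged and 2.13 for the highest young library.

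Of the connexins, Gjb2 (chromosome 14, 57098600 to 57104702, minus strand) encodes connexin 26, and its upstream window is the first of the sequences above. It read 115, 137 and 109 TPM in treated, 90.3, 73.6 and 78.7 TPM in aged and 69.1, 71.9 and 65.7 TPM in young libraries. All treated libraries lay above all aged ones, and all aged above all young ones. The means were 120 ± 14.8 TPM in treated, 80.8 ± 8.56 TPM in aged and 68.9 ± 3.07 TPM in young livers (SD, 3 libraries in each). Gjb2 rose in treated against aged livers by 0.57 ± 0.11 on the log2 scale (limma adjusted p = 0.0327) and in treated against young livers by 0.79 ± 0.11 (limma adjusted p = 0.00419). Aged against young livers gave 0.22 ± 0.11 and was not called (limma adjusted p = 0.383). The call in treated against aged livers was lost in 7 of 14 alternative fits, and folds over all 14 were 0.47 to 0.68. It was lost in the fits without aged library 2 (limma adjusted p = 0.118) or treated library 1 (0.0687), 2 (0.134) or 3 (0.0723), with no filter (0.071), with a replicate block (0.0674) and with those groups alone (0.103).

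Gjb1 (chromosome X, 101376378 to 101385629, plus strand) encodes connexin 32, the main gap junction protein of hepatocytes, and had the highest level of the 10 genes in every group. It read 413, 364 and 384 TPM in treated, 409, 393 and 462 TPM in aged and 474, 521 and 420 TPM in young libraries. Treated libraries lay below all young ones, and aged libraries overlapped with both. Treated against young livers differed by -0.28 on the log2 scale (95% interval -0.51 to -0.05; limma adjusted p = 0.129), called under quantile normalization alone (limma adjusted p = 0.0466). Treated against aged livers differed by -0.12 (-0.35 to 0.11). The ratio of Gjb1 to Gjb2 was 3.58, 2.66 and 3.53 in treated, 4.53, 5.35 and 5.87 in aged and 6.86, 7.24 and 6.39 in young libraries. Connexin 32 mRNA exceeded connexin 26 mRNA in all 9 libraries. The ratios of the 3 groups did not overlap, which repeats the separation of Gjb2 alone.

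Of the tight junction genes, Cldn1 (chromosome 16, 26356642 to 26371841, minus strand) encodes a sealing claudin. It read 13.3, 8.3 and 11.1 TPM in treated, 12.6, 14.3 and 20.6 TPM in aged and 23.5, 22.1 and 21 TPM in young libraries. Treated and aged libraries all lay below the young ones, and treated overlapped with aged. The means were 10.9 ± 2.5 TPM in treated, 15.8 ± 4.22 TPM in aged and 22.2 ± 1.26 TPM in young livers (SD, 3 libraries in each). Cldn1 fell in treated against young livers, at -1.02 ± 0.19 on the log2 scale (limma adjusted p = 0.0133), a call lost without young library 1 (limma adjusted p = 0.0593) or treated library 2 (0.0539). Treated against aged livers gave -0.51 ± 0.19 (limma adjusted p = 0.195) and aged against young livers -0.51 ± 0.19 (limma adjusted p = 0.254). Without aged library 3, whose level was the highest of the aged group, aged against young livers gave -0.71 and was called (limma adjusted p = 0.0264).

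Cldn2 (chromosome X, 139800828 to 139811386, plus strand) encodes a claudin that forms channels for cations and water. It read 28.7, 24.8 and 19.4 TPM in treated, 19.3, 22.7 and 16.9 TPM in aged and 25.8, 20.1 and 23.6 TPM in young libraries, with overlap between all groups. Cldn3 (chromosome 5, 134986214 to 134987472, plus strand) encodes another sealing claudin and read 83.2, 92.2 and 94.9 TPM in treated, 74.8, 66.3 and 118 TPM in aged and 84.7, 109 and 68.9 TPM in young libraries. It was the highest of the 3 claudins in all 9 libraries, its groups overlapped, and the annotation places an antisense gene, Wbscr25, over its exons. Treated against aged livers differed by 0.29 (95% interval -0.05 to 0.64) for Cldn2 and 0.11 (-0.37 to 0.58) for Cldn3 on the log2 scale. The ratio of Cldn3 to Cldn1 was 6.26, 11.1 and 8.51 in treated, 5.94, 4.64 and 5.71 in aged and 3.6, 4.93 and 3.28 in young libraries, with treated libraries above all others.

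Tjp1 (chromosome 7, 65296165 to 65527781, minus strand) encodes ZO-1, the scaffold that joins claudins to actin, and had the lowest mean of the 10 genes in every group. It read 2.38, 2.73 and 1.53 TPM in treated, 1.65, 2.28 and 2.11 TPM in aged and 3.0, 2.21 and 2.9 TPM in young libraries, with overlap between all groups. On the log2 scale treated against aged livers differed by 0.09 (95% interval -0.34 to 0.52), treated against young by -0.26 (-0.69 to 0.17) and aged against young by -0.35 (-0.78 to 0.08).

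**Figure D3:**
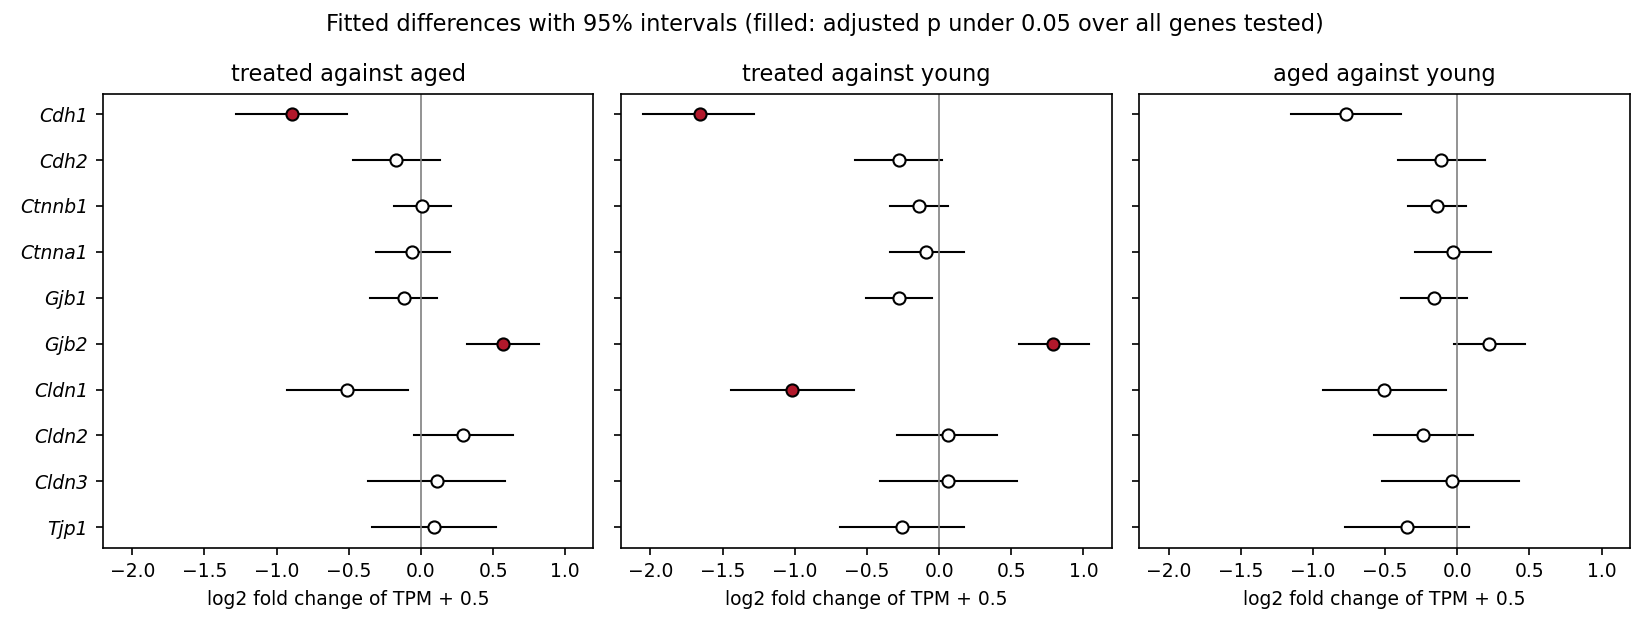
Log2 fold change of TPM + 0.5 (horizontal axis) with 95% intervals for the 10 genes in the 3 comparisons; filled points have a limma adjusted p under 0.05. Cdh1 and Gjb2 are filled in treated against aged livers (-0.89 and 0.57), and Cldn1 as well in treated against young livers (-1.02).

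Ranked by mean TPM, treated livers had Gjb1, Gjb2, Cldn3, Ctnnb1, Cldn2, Ctnna1, Cdh2, Cldn1, Cdh1 and Tjp1. Aged and young livers shared the order Gjb1, Cldn3, Gjb2, Ctnnb1, Ctnna1, Cldn2, Cldn1, Cdh2, Cdh1 and Tjp1. Gjb2 lay above Cldn3 without overlap in treated livers, and the pair overlapped in aged and in young livers. Cdh1 lay above Tjp1 without overlap in aged and young livers, and the pair overlapped in treated livers. Cldn2 and Ctnna1 overlapped in all groups, Cldn1 and Cdh2 in treated and aged livers, and Cldn1 and Cldn2 in aged and young livers. The median log2 fold change of the 10 genes was -0.03 in treated against aged, -0.20 in treated against young and -0.15 in aged against young livers, beside -0.09, -0.10 and -0.01 over all genes tested.

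Among 73 other genes of adherens, tight and gap junctions, desmosomes and keratins, 36 passed the filter, and 3 fell in treated against young livers. That is 8.33%, beside 4.29% of all genes tested called lower and 6.88% called in either direction. The median log2 fold change was -0.18, against -0.10 over all genes. Treated against aged livers, limma called 0 of 36 with 10 at an unadjusted p under 0.05, beside 18.2% of all genes tested (median -0.13, -0.09 over all genes). Aged against young livers, limma called 0 of 36 with 7 at an unadjusted p under 0.05, beside 15.0% of all genes tested (median -0.06, -0.01 over all genes). The calls in treated against young livers were 2 of 8 desmosome and keratin genes, 1 of 15 tight junction genes, 0 of 12 adherens junction genes (4 at an unadjusted p under 0.05, beside 24.8% of all genes tested) and 0 of 1 gap junction gene. Without treated library 2, 1 of the 36 was called there; without aged library 3, 4 were called in aged against young and 1 in treated against aged livers.

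Desmosomes anchor keratin filaments at cell contacts. Dsg2, the desmosomal cadherin desmoglein-2, read 9.06, 7.61 and 8.14 TPM in treated, 9.68, 10.4 and 12.5 TPM in aged and 15.2, 13 and 16.1 TPM in young libraries. Its 3 groups did not overlap, and it fell in treated against young livers, at -0.80 ± 0.13 on the log2 scale (limma adjusted p = 0.00696). Dsp, encoding desmoplakin, which links desmosomes to keratin, read 2.02, 1.61 and 1.93 TPM in treated, 2.26, 2.6 and 3.08 TPM in aged and 4.63, 3.51 and 3.52 TPM in young libraries. It fell, at -0.89 ± 0.16 in the same comparison (limma adjusted p = 0.0102), again without overlap between any groups. Cgn, encoding the tight junction plaque protein cingulin, read 4.99, 3.14 and 3.9 TPM in treated, 4.9, 5.32 and 5.52 TPM in aged and 7.32, 6.15 and 5.94 TPM in young libraries. It fell, at -0.64 ± 0.16 in treated against young livers (limma adjusted p = 0.0338), and its treated and aged libraries overlapped. The call for Cgn was lost in 9 of 14 alternative fits, which were no filter (limma adjusted p = 0.0609), median-of-ratios scaling (0.0656), quantile normalization (0.0584), the replicate block (0.0517) and leaving out any of young libraries 1, 2 and 3 (0.128, 0.0759 and 0.0748) or treated libraries 2 and 3 (0.126 and 0.0947). That for Dsp was lost in 1 of 13, without treated library 2 (limma adjusted p = 0.0533), and that for Dsg2 in 0 of 14.

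**Figure D4:**
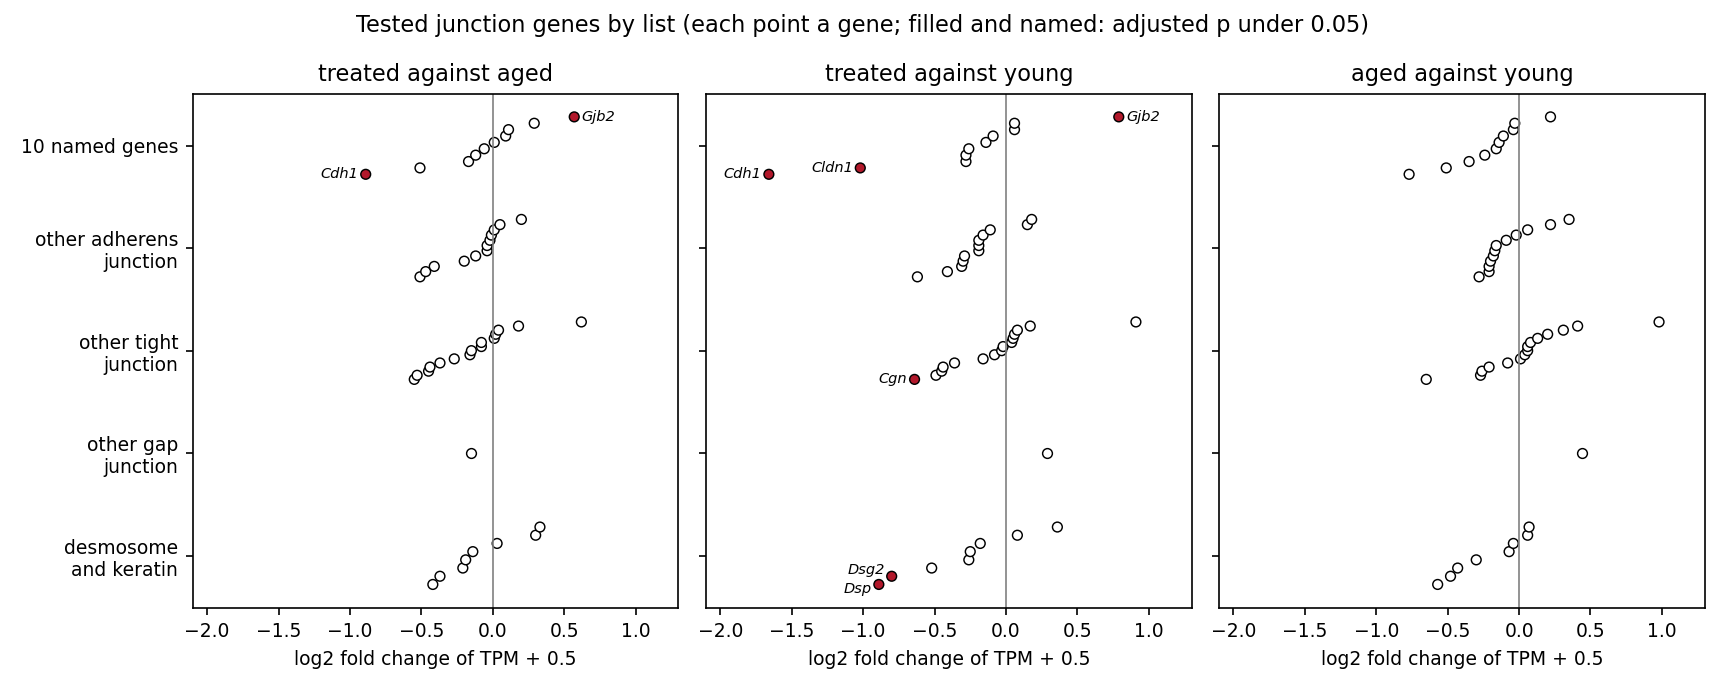
Log2 fold change of TPM + 0.5 (horizontal axis), a point per tested gene, for the 10 genes and 4 lists of other junction genes in the 3 comparisons; filled, named points have a limma adjusted p under 0.05. Dsp, Dsg2 and Cgn (-0.89, -0.80 and -0.64) are the filled points of the 4 lists, in treated against young livers.

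Of each list of other junction genes, up to 3 uncalled genes with the highest mean level are given here. Krt18, a hepatocyte keratin, averaged 212 TPM in treated, 172 TPM in aged and 162 TPM in young livers. Its partner Krt8 averaged 160 TPM in treated, 156 TPM in aged and 150 TPM in young livers. Perp, a desmosome-associated membrane protein gene, averaged 35.7 TPM in treated, 40.8 TPM in aged and 43 TPM in young livers. Those of the adherens junction were Ctnnd1, encoding p120-catenin (14.9 TPM in treated, 15.1 TPM in aged and 17.1 TPM in young livers), the polarity gene Pard3 (12.8 TPM in treated, 11.1 TPM in aged and 11.3 TPM in young livers) and Pvrl3, encoding nectin-3 (11 TPM in treated, 11.3 TPM in aged and 12.7 TPM in young livers). Of the tight junction, F11r, encoding JAM-A, averaged 23.7 TPM in treated, 23.5 TPM in aged and 22.7 TPM in young livers, and Cldn12 10.2 TPM in treated, 11.3 TPM in aged and 13.3 TPM in young livers. Cldn14, uneven within the aged group, read 18.2, 20.1 and 16.4 TPM in treated, 24.1, 30.1 and 9.61 TPM in aged and 10.1, 12.1 and 6.87 TPM in young libraries. Gja4, the connexin 37 gene of endothelium, was the single other gap junction gene tested and averaged 2.11 TPM in treated, 2.47 TPM in aged and 1.65 TPM in young livers.

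Regulators of Cdh1 transcription and epithelial splicing gave no call: 4 of 12 were tested, with 1 at an unadjusted p under 0.05 in treated against young livers (beside 24.8% of all genes tested) and 0 in the other comparisons. Hnf4a, the nuclear receptor of hepatocyte identity, read 164, 152 and 165 TPM in treated, 189, 181 and 96.4 TPM in aged and 116, 94.4 and 117 TPM in young libraries. Its treated libraries lay above the young ones (log2 fold change 0.56, limma adjusted p = 0.153), and aged library 3 lay apart from the other two aged ones. Esrp2, an epithelial splicing factor, averaged 22.1 TPM in treated, 21.3 TPM in aged and 23.9 TPM in young livers. The repressor gene Zeb1 read 1.13, 1.24 and 1.17 TPM in treated, 1.48, 1.0 and 1.65 TPM in aged and 1.79, 1.28 and 1.74 TPM in young libraries. Its treated libraries lay below all young ones, with no call (log2 fold change -0.32, limma adjusted p = 0.302). Snai2, the other repressor gene tested, read 1.81, 1.25 and 1.44 TPM in treated and 0.642, 0.698 and 0.863 TPM in young libraries. Snai2 reached 1 TPM in the treated libraries and aged library 3 only, and so passed the filter through the group where it was highest. Its treated libraries lay above all young ones, with no call (log2 fold change 0.69, limma adjusted p = 0.264). Aged libraries, at 0.239, 0.843 and 2.07 TPM, overlapped with both.

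Tested genes were ranked by likeness to Cdh1 over the 9 libraries, with predicted and clone-named genes left out. The most alike was Cdkn2c, encoding p18INK4c, a protein inhibitor of CDK4 and CDK6. It read 1.15, 0.542 and 0.709 TPM in treated, 1.75, 2.15 and 1.98 TPM in aged and 3.71, 3.41 and 3.76 TPM in young libraries. Pearson's r with Cdh1 on log2(TPM + 0.5) was 0.993, and 0.901 after each group's mean was taken out. Next came Cmpk2, a mitochondrial nucleotide kinase gene (r = 0.968), the RNA helicase gene Mov10 (0.967), the iodotyrosine deiodinase gene Iyd (0.966) and the interferon-inducible GTPase gene Igtp (0.966). With group means taken out, their r was 0.885, 0.56, 0.773 and 0.873. Cmpk2 reached 1 TPM in the young libraries only, and so passed the filter through the group where it was highest. In the other 4, treated libraries lay below aged and aged below young ones without overlap. They were picked for likeness, the points share 3 groups, and 156 genes, predicted and clone-named ones counted, had an r over 0.9. Within the 10 genes, r with Cdh1 ran from -0.935 for Gjb2 to 0.922 for Cldn1.

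**Figure D5:**
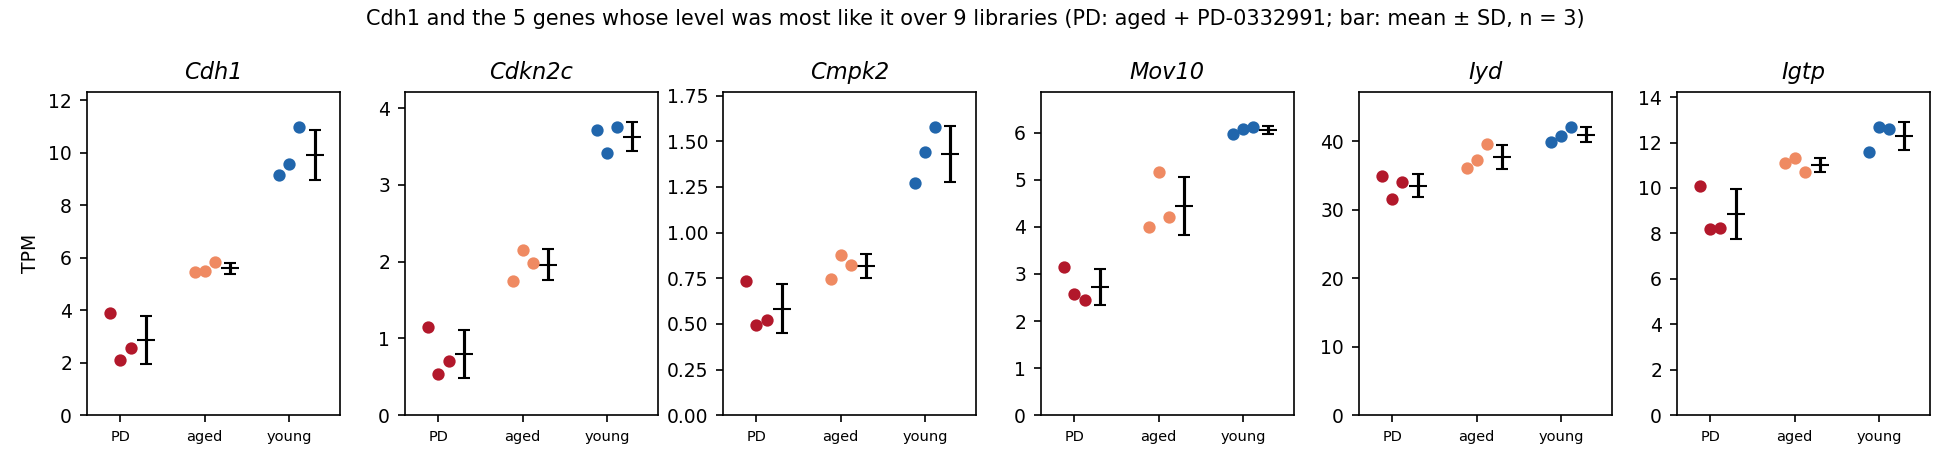
Level in TPM (vertical axes, starting at 0) of Cdh1 and the 5 genes with the highest r with it, in treated, aged and young livers; points are libraries and bars the mean ± SD of 3 libraries. Cdkn2c averages 0.801 TPM in treated, 1.96 TPM in aged and 3.63 TPM in young livers.

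Marker genes of cells that could add junction mRNA were measured in the same libraries. The 8 cholangiocyte markers summed to 12.1 to 17.7 TPM in treated, 15.7 to 27.1 TPM in aged and 21.7 to 25.1 TPM in young livers, in the direction of Cdh1. Among them, Krt7 reached at most 1.03 TPM, Krt19 1.65 TPM and Epcam 0.512 TPM in any library. Sox9, also a duct marker, rose in aged against young livers (means of 1.7 TPM in aged and 0.577 TPM in young livers, limma adjusted p = 0.0328). The 8 Kupffer cell markers summed to 71.8 to 79.5 TPM in treated, 80.6 to 119 TPM in aged and 86.9 to 139 TPM in young livers, and Clec4f, Vsig4, Timd4 and Csf1r fell in treated against young livers (limma adjusted p = 0.0183, 0.0325, 0.0399 and 0.0231). The part of these cells in the levels of Cdh1, Cldn1 and the desmosome genes was not tested.

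All marker sums except that of Kupffer cells overlapped between treated and aged livers. Stellate markers summed to 89.2 to 130 TPM in treated, 99.9 to 146 TPM in aged and 134 to 139 TPM in young livers. Sinusoidal endothelial markers summed to 50.6 to 59.6 TPM in treated, 50.8 to 66.1 TPM in aged and 59.2 to 63.2 TPM in young livers, and among them Lyve1 fell in aged against young livers (limma adjusted p = 0.0449). Lymphocyte markers summed to 1.45 to 3.22 TPM in treated, 1.54 to 8.09 TPM in aged and 4.07 to 6.76 TPM in young livers. Periportal markers gave 3780 to 4540 TPM in treated, 3920 to 4790 TPM in aged and 3600 to 3950 TPM in young livers. Pigr rose in treated against young (limma adjusted p = 0.0195) and aged against young livers (0.0085). Of 10 periportal markers, 9 had log2 fold changes below 0 in treated against aged and 7 in treated against young livers, none called lower. Medians were -0.23 and -0.12, beside -0.09 and -0.1 over all genes tested. In aged against young livers 3 were below 0. Pck1, uncalled, averaged 915 TPM in treated and 483 TPM in aged livers. Pericentral markers gave 3350 to 3640 TPM in treated, 3270 to 3600 TPM in aged and 3300 to 3450 TPM in young livers. Cyp2e1 alone averaged 2360 TPM in treated livers. Slc1a2 rose in treated against young (limma adjusted p = 0.0052) and aged against young livers (0.0162), and Oat in treated against young livers (0.00539). Of 10 pericentral markers tested, 6 were below 0 in treated against aged and 6 in treated against young livers, none called lower. Medians were -0.24 and -0.07. In aged against young livers 2 were below 0. Hepatocyte markers gave 26500 to 30400 TPM in treated, 26800 to 31200 TPM in aged and 29200 to 30100 TPM in young livers. Alb, the albumin gene, was listed at 0 in all libraries, so this sum holds no albumin mRNA. Why it was at 0 was not tested. Ttr was lower in treated than in young livers (means of 5810 TPM in treated and 7680 TPM in young livers, limma adjusted p = 0.0357). No marker sum could give an exact two-sided permutation p below 0.1 with 3 against 3 libraries, and the adjusted p over 24 tests was 0.48 or more.

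Median-of-ratios scaling moved the median log2 fold change of all genes in treated livers to 0.01 against aged and 0.02 against young livers, where it was -0.09 and -0.10 on TPM as deposited. With it Cdh1 was at -0.80 against aged and -1.55 against young livers, Gjb2 at 0.68 and 0.92, and the same genes among the 10 were called. Over all genes, treated against aged livers then gave 119 higher and 55 lower calls (62 and 85 as deposited), and treated against young livers 386 and 228 (263 and 436 as deposited). Quantile normalization gave 88 and 56, and 308 and 310.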

How the data were processed

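Each library has a table of TPM per gene symbol, deposited by the authors; the submitters' processing notes name kallisto and mm10. No annotation, version or gene-level summing step was found in the labels or headers. Per the labels' protocols, libraries were TruSeq RNA, sequenced paired-end. TPM keeps no depth, so sequencing depth is unknown here and no counting intervals are given; the values of a table made up 53.1% to 57.7% of the TPM scale. The 4 rows of 2 repeated symbols were dropped. No pair of libraries was identical.

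Genes reaching 1 TPM in 3 libraries entered 1 model of all 9 libraries, with group as its only term, on log2(TPM + 0.5), a scale that understates changes of low genes (limma 3.58.1, R 4.3.3, trended and robust variance, two-sided, adjusted over 10161 genes). The model was tested on simulated data. Members and 13 other lists (157 entries, 149 matched by symbol, 5 by older synonym) were chosen with earlier results of these data known. Named were all 10 members, called markers, and called genes of each junction and regulator list plus up to 3 uncalled ones of highest mean. Also named were Snai2, the remaining tested regulator, and the 5 genes most like Cdh1, with predicted and clone-named genes left out. Positions are from GENCODE M21 (GRCm38). Marker sums were compared by exact permutation. Alternatives were pseudocounts of 0.1 and 1, no filter or 5 TPM, 2 scalings, a replicate block, fits of 2 groups and leaving out each library.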

Additional observations from a re-analysis of the deposited data

How the results depend on the processing

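Neither pseudocount, nor the 5 TPM filter (which drops Tjp1), nor median-of-ratios scaling changed a call among the 10 genes, and no called fold of the 10 changed sign in any fit. Of the 10 genes, treated against aged livers gave 2 calls, 0 with no filter, 1 with quantile normalization, 0 with those groups alone and 0 to 2 without 1 library. Aged against young livers gave 0 calls, 1 with those groups alone and 0 to 2 without 1 library; treated against young livers gave 3, and 2 to 3 without 1 library. Of the other junction genes, treated against young livers gave 3 calls, 7 with those groups alone, 2 with median-of-ratios scaling, quantile normalization, the 5 TPM filter or a replicate block, and 1 to 4 without 1 library, where aged against young gave 0 to 4 and treated against aged 0 to 1. Over all genes, aged against young livers gave 112 calls, 62 with no filter, 49 with those groups alone and 16 to 696 without 1 library. Treated against aged livers gave 147, 29, 25 and 7 to 392 in the same order, and treated against young livers 699, 1282 with those groups alone and 153 to 475 without 1 library. No filter raised the genes tested to 16836; other causes were not tested. Same-numbered libraries deviated from their group means with correlations of -0.22 to 0.166 (other pairs -0.222 to 0.229), so the numbers were not taken to pair them. With a replicate block, treated against aged livers had 0 of the 10 genes called (limma adjusted p = 0.0663 for Cdh1 and 0.0674 for Gjb2) and 60 of all genes. Under median-of-ratios scaling, marker sums in treated minus young livers differed by 752 TPM (periportal; 398 as deposited), 391 TPM (pericentral; 86.6), 1450 TPM (hepatocyte; -1110) and 0.578 TPM (endothelial; -4.67), and pericentral sums in treated minus aged livers by 320 TPM (55.0). Sequencing depth is unknown, so its effect on low genes was not tested.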
